A study of Homo sapiens with 6 samples.

Results

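The genes described here are 10 transcription factors of the ETS family that act at the end of the ERK signalling cascade: ETS1, ETS2, FLI1, ETV1, ETV4, ETV5, ETV6, ELK1, ELK3 and ELK4. The list was drawn up by gene name with earlier results of these data known, and each gene was read from the probe set whose platform annotation gives that gene as its only symbol. Of the 10 genes, 9 were measured this way, among 18417 genes in all. ETV6 had no such probe set, since the annotation of its probe set holds 2 symbols (ETV6 and INO80D), and it was not analysed here. Each of the 9 genes had 1 probe set of its own, so no choice between probe sets entered its values.

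The cells are WM164, an established melanoma line described in the labels as BRAF mutant. The group called Parent consists of 3 control samples, labelled untreated, which per the series title were exposed to the solvent DMSO. The group called IDTC colony consists of 3 samples kept for 60 days in 500 nM PLX4032 (vemurafenib, an inhibitor of mutant BRAF), with the medium and inhibitor renewed throughout, and their labels describe them as resistant. All 6 samples are of this single line, so the comparison says how these colonies differed from these parent cells and nothing of other melanomas. Each sample's RNA was hybridised to a separate Affymetrix whole-transcript array in 1 colour, and with 3 arrays a group the number of arrays limits the precision.

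ETS proteins bind DNA through a shared winged helix-turn-helix domain, the ETS domain, that recognises a GGAA core. In cells with mutant BRAF the kinases MEK and ERK are constantly active, and ERK phosphorylates several ETS proteins. The ternary complex factors ELK1, ELK3 and ELK4 sit with serum response factor on the promoters of immediate early genes such as FOS and EGR1. The PEA3 group (ETV1, ETV4 and ETV5) is both activated by ERK and transcribed in response to it, and ETV1 acts as an oncogene in part of melanomas. ETS1 and ETS2 carry a docking domain for ERK, whereas FLI1 is best known from blood and endothelial cells. ETV6 is mainly a repressor.

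Promoter sequence from RefSeq (GRCh38.p14), covering 250 bases before and 50 bases after a transcription start, was at hand for 6 of the 10 genes in 13 windows: ELK1, ELK3, ELK4, ETS2, ETV1 and ETV6. The windows were searched on both strands for the ETS site CCGGAAGT, for the site of the repressor CIC (TGAATGAA or TGAATGGA), for the AP-1 site (TGACTCA or TGAGTCA), for the cAMP response element TGACGTCA, and for the CArG box to which serum response factor binds. Of the 3 windows below, those of ELK4, the ternary complex factor that rose, and ETV1, the PEA3 gene that fell, are shown because they were the only windows of the 13 with a match. The third is of ETS2, the member with the larger rise among those with a window. Capitals mark a match, and lower case is the rest of the window, written 5′ to 3′ on the gene's own strand.
ELK4, chr1:205631962-205632261, minus strand: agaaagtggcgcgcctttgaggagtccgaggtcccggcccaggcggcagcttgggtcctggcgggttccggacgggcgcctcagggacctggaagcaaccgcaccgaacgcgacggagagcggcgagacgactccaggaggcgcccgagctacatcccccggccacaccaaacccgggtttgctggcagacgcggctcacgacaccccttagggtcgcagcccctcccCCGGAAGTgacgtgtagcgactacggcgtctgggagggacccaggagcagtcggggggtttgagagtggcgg
ETV1, chr7:13991376-13991675, minus strand: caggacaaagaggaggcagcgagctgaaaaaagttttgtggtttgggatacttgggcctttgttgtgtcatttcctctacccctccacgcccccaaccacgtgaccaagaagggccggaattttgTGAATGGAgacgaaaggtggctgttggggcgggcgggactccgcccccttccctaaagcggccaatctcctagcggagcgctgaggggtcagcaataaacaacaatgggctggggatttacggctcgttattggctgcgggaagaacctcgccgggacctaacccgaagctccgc
ETS2, chr21:38805679-38805978, plus strand: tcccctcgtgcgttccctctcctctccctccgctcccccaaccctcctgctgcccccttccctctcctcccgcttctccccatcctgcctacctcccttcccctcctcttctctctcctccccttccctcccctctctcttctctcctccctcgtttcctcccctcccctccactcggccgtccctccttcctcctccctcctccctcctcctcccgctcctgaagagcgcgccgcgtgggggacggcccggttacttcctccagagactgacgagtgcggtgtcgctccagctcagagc
The ELK4 window holds the ETS site, starting 22 bases before the transcription start, and 4.14% of all 35116 windows of this length hold it on either strand. The ETV1 window, 1 of 6 for that gene, holds the CIC site TGAATGGA, starting 125 bases before the start, and the other 5 hold no match. Of all windows 2.63% hold one of the CIC sites, a share per window and not per gene with 6 windows searched. The ETS2 window shown is 1 of 2 for that gene, and neither holds a match. No match to the AP-1 site (4.95% of all windows), the cAMP response element (1.85%) or the CArG box (1.29%) lay in any of the 13 windows. A match describes the letters of the window and is not a bound site.

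In the colonies, ETS1 was 4.62-fold and ETS2 2.23-fold higher than in parent cells, while the PEA3 and ELK genes moved by less than 1.5-fold and in both directions. Of the 9 genes, 5 were higher (ETS1, ETS2, ELK4, ETV5 and ETV4), 3 were lower (ELK1, ETV1 and ELK3), and FLI1 did not pass the test (limma over all 18417 genes, adjusted p under 0.05). Over all genes the same test called 43.8% (20.9% higher and 22.9% lower), and it called 68% of the genes above the median expression. The 8 called genes all lie above that median and FLI1 below it, and calls were frequent among such genes in general. At 2-fold or more the test called 5.41% of all genes and 2 of the 9. Both were higher, as were 2.65% of all genes and 3.86% of those above the median expression at that size. The median difference of the 9 genes was 0.25 on the log2 scale against 0.00 over all genes, and their median absolute difference was 0.38 against 0.15. Among genes above the median expression alone the median difference was -0.026. Their median absolute difference was not computed, so the part of expression level in the gap between 0.38 and 0.15 is not known. Values of one gene are not set against those of another below, since probe sets differ in how they bind.

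**Figure D1:**
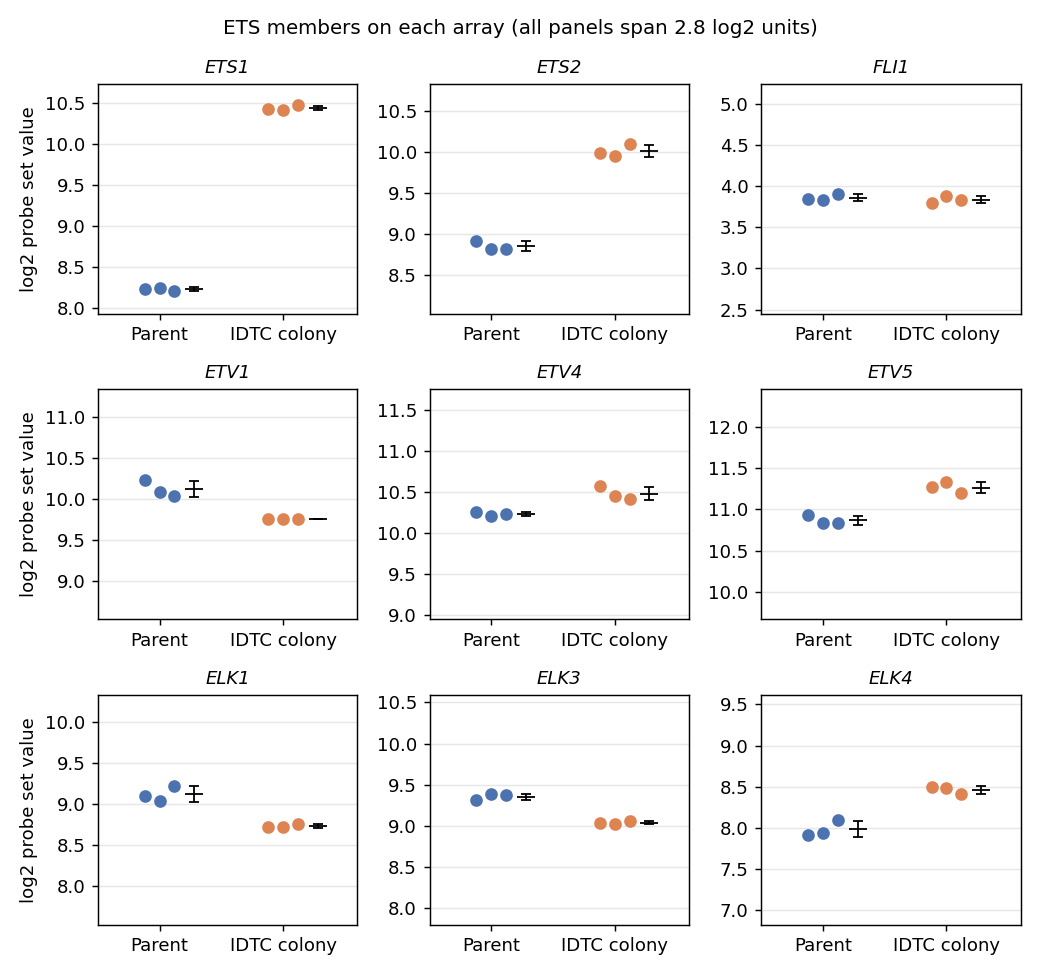
Deposited log2 value of each measured ETS gene on each array, for Parent (blue) and IDTC colony (orange), with the group mean and SD (n = 3 arrays) in black; the height of every panel covers the same number of log2 units. ETS1 and ETS2 show the widest separation, FLI1 shows overlapping groups (means 3.86 and 3.84), and the other genes show smaller gaps in both directions.

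ETS1 (probe set 7952601), which in many tumours is tied to invasion and matrix proteases, had the largest difference of the 9. Its log2 values were 8.24, 8.25 and 8.21 in parent cells and 10.43, 10.42 and 10.47 in colonies. The groups lay 2.17 apart at their nearest, against a range of at most 0.05 within a group. The log2 difference was 2.21 ± 0.04 (SE, n = 3 arrays per group, 95% interval 2.11 to 2.31, limma adjusted p = 1.1e-07). Among all 18417 genes, 55 (0.299%), ETS1 included, had a rise of at least this size.

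ETS2 (probe set 8068593), the closest relative of ETS1 and likewise activated by ERK through its docking domain, read 8.92, 8.82 and 8.82 in parent cells and 9.99, 9.95 and 10.09 in colonies. All 3 colony values lay above all parent values, by 1.03 or more. The log2 difference was 1.16 ± 0.06 (SE, limma adjusted p = 3.3e-06), and 1.79% of all genes rose by that much or more. The intervals of ETS1 and of ETS2 (1.03 to 1.29) did not overlap, though the difference between the genes was not itself tested.

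FLI1 (probe set 7945132) lies next to ETS1 in the gene order. Its values were 3.84, 3.83 and 3.91 in parent cells and 3.80, 3.88 and 3.83 in colonies. These overlap and lie below the lowest array median of 6.25, and whether they exceed background was not tested. The log2 difference was -0.02 ± 0.05, with a 95% interval of -0.13 to 0.09 (limma adjusted p = 0.76).

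The PEA3 genes did not move as a group: ETV5 and ETV4 rose and ETV1 fell. ETV5 (probe set 8092578) read 10.93, 10.83 and 10.84 in parent cells and 11.27, 11.33 and 11.20 in colonies, a difference of 0.39 ± 0.05 (SE, limma adjusted p = 0.00061). ETV4 (probe set 8015806) read 10.26, 10.21 and 10.23 in parent cells and 10.57, 10.45 and 10.42 in colonies, a difference of 0.25 ± 0.05 (limma adjusted p = 0.00676) and the smallest of the 8 calls. Colony values of both genes lay above every parent value, by 0.26 for ETV5 and 0.16 for ETV4. ETV1 (probe set 8138289) went the other way. Its parent values were 10.23, 10.08 and 10.04, and its 3 colony values were identical in the deposited table, at 9.75. The difference was -0.37 ± 0.06 (limma adjusted p = 0.00128), which leaves 77.3% of the parent level. An SD of 0 among the colonies is a property of the deposited values and not a measure of their precision. Other genes named below, among them RPS6KA3 (9.21) and IER3 (11.66), also had colony values that were equal after rounding.

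The ternary complex factors were split as well. ELK4 (probe set 7923778), also called SAP1, rose: its values were 7.91, 7.94 and 8.09 in parent cells and 8.49, 8.48 and 8.41 in colonies, a difference of 0.48 ± 0.06 (SE, limma adjusted p = 0.00043). ELK1 (probe set 8172345), the best studied ERK substrate of the group, fell from 9.10, 9.03 and 9.22 to 8.72, 8.72 and 8.76, a difference of -0.38 ± 0.06 (limma adjusted p = 0.00111). ELK3 (probe set 7957665), or Net, which represses transcription until ERK phosphorylates it, fell from 9.31, 9.38 and 9.37 to 9.03, 9.02 and 9.06, a difference of -0.32 ± 0.04 (limma adjusted p = 0.00058). For each of the 3 genes the groups did not overlap. Counted over the 9 genes, 8 had groups that did not overlap, which held for 50.8% of all genes and for 76.2% of those above the median expression.

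By their 95% intervals, ETS1, ETS2 and FLI1 each overlapped no other of the 9 genes. ELK4 (0.34 to 0.62), ETV5 (0.27 to 0.52) and ETV4 (0.12 to 0.37) formed a chain of overlapping intervals above 0, and ELK3 (-0.42 to -0.22), ETV1 (-0.51 to -0.24) and ELK1 (-0.52 to -0.24) a cluster below it. The 8 calls and their directions were the same after shifting the arrays to a common median, after quantile normalization, and with any 1 array left out.

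Of the 18 other human ETS genes, all measured, 4 were higher (ETV3, ELF2, ERG and ELF4), 2 were lower (ELF1 and ERF) and 12 missed the threshold, and none was called at 2-fold. Over all genes the test called 43.8%. The median difference of the 18 was 0.00 and their median absolute difference 0.14. Group means lay below the lowest array median for 8 of the 18, against 1 of the 9 genes above, and no test compared both sets. ETV3, a repressor, rose by 0.39 ± 0.05 (limma adjusted p = 0.00074). ERF, a repressor that leaves the nucleus when ERK phosphorylates it, changed from 7.90 ± 0.02 to 7.76 ± 0.04 (SD, n = 3; difference -0.14 ± 0.04, limma adjusted p = 0.039). GABPA, a broadly active ETS factor of nuclear-encoded mitochondrial genes, was at 7.92 ± 0.16 and 8.06 ± 0.08 (difference 0.14, 95% interval -0.06 to 0.35). ERG, the close relative of FLI1, was at 3.96 ± 0.06 and 4.22 ± 0.17, with overlapping groups (limma adjusted p = 0.0472). With arrays shifted to a common median only ETV3 of these 4 rises still passed, at adjusted p = 0.0523 for ERG, 0.068 for ELF2 and 0.0579 for ELF4. With 1 array left out at a time, the list held 1 to 3 rises and 0 to 3 falls. The calls of ERF and ELF2 ended without any 1 array but parent replicate 1, and that of ERG without any 1 array but colony replicate 2. The call of ELF4 ended without colony replicate 3 (adjusted p = 0.0531) or parent replicate 2 (0.0686), and that of ELF1 without colony replicate 3 (0.0513).

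**Figure D2:**
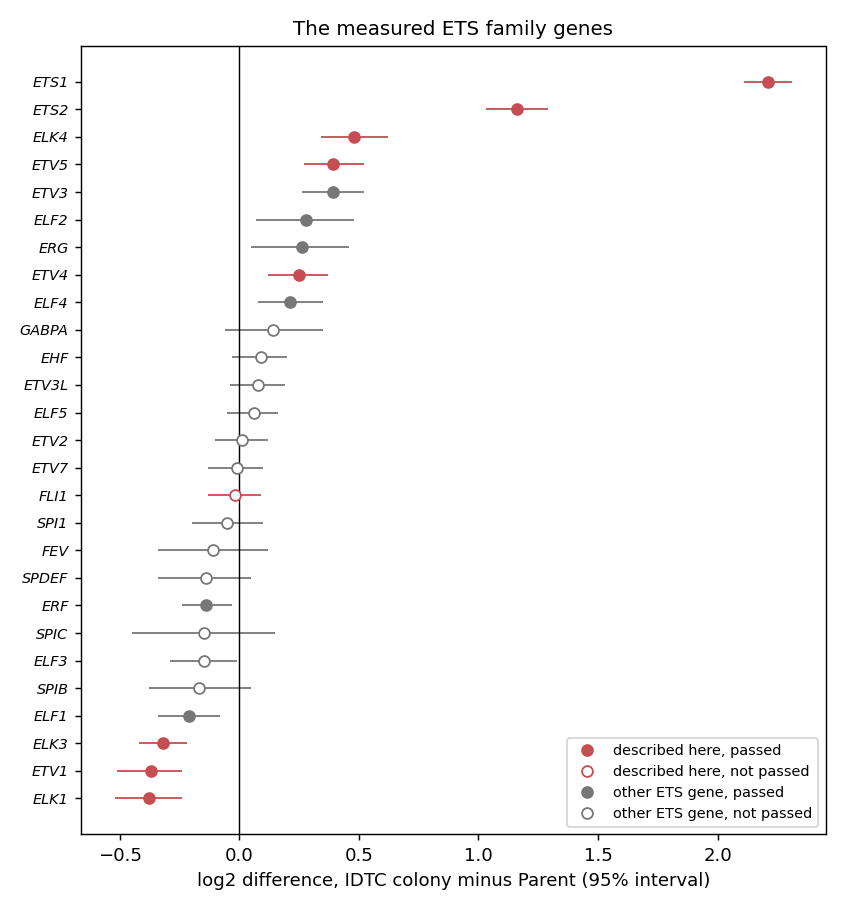
Log2 difference between IDTC colony and Parent for the 27 measured ETS family genes, ordered by size, with 95% intervals (limma, 3 arrays per group); red marks the 9 genes described here and grey the 18 others, and filled circles passed the test. ETS1 (2.21) and ETS2 (1.16) lie apart from the remaining genes, which span -0.38 to 0.48.

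Because neighbouring genes can differ together, each difference was set beside the median of the 50 nearest genes above the median expression (25 on each side in the RefSeq order, fewer at a chromosome end). ETS1 lay above all 36 of its available neighbours, whose median was -0.11. The genes next to it, FLI1 and KCNJ1 on one side (-0.02 and 0.01) and KIRREL3-AS3 and KIRREL3 on the other (0.02 and -0.10), did not pass the test. Each of these had group means below the lowest array median of 6.25, and whether they exceed background was not tested. ETS2, on chromosome 21, lay above 47 of 50 neighbours, but those had a median of 0.37 themselves, so its difference beyond them was 0.79. ETS2-AS1, annotated directly beside ETS2, was at 5.31 and 5.29, also below the lowest array median, and did not pass the test (difference -0.02 ± 0.06, limma adjusted p = 0.811). ERG, 2 tested genes away on the same chromosome, had a neighbour median of 0.38.

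Among the called genes, ETV4 and ELK3 turned sign against their surroundings. ETV4, on chromosome 17, rose by 0.25 among neighbours with a median of 0.45, which turns its value to -0.21 when that median is subtracted. Close by, LINC00910 rose by 1.96 ± 0.09 and the splicing helicase gene DHX8 by 0.81 ± 0.08. ELK3 fell among neighbours with a median of -0.38, and its value beyond them was 0.06. ELK4 rose among neighbours with a median of 0.33, leaving 0.15. ETV5 (neighbour median -0.03, remainder 0.42), ELK1 (-0.05 and -0.33) and ETV1 (-0.13 and -0.24) kept their direction. Beside ETV5 in the gene order, NMRAL2P rose by 1.47 ± 0.06 while the splicing factor gene TRA2B changed by -0.81 ± 0.04, and AGMO, the second tested gene past ETV1, changed by -2.42 ± 0.06. What the shared shifts of neighbours reflect was not tested.

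**Figure D3:**
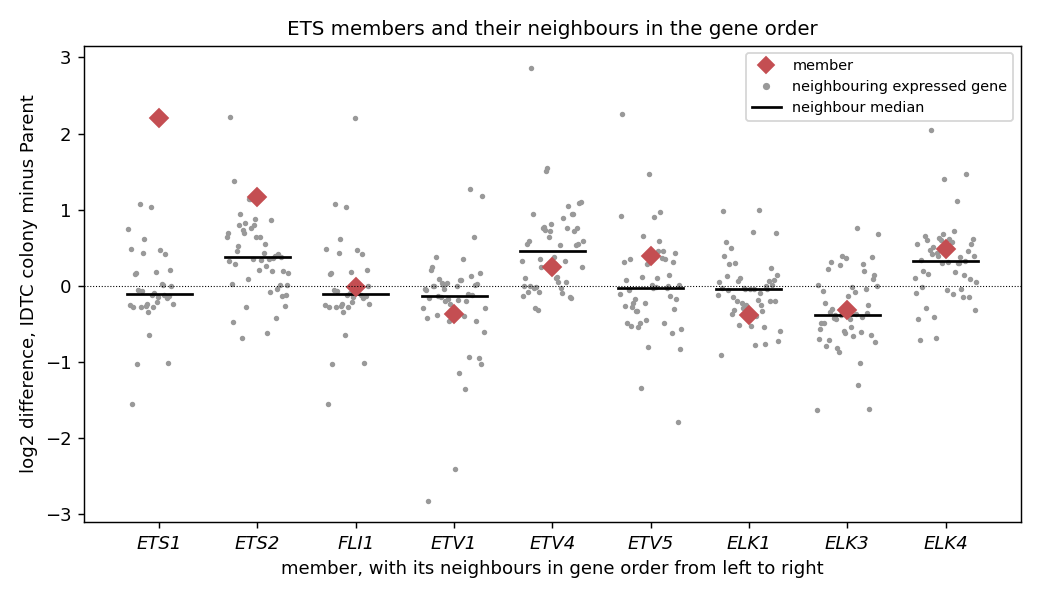
Log2 difference between IDTC colony and Parent for each ETS gene (red diamonds) and for the expressed genes around it in the gene order (grey points, up to 25 on each side), with the neighbours' median as a black line. ETS1 lies above every neighbour shown, whereas ELK3, ELK4 and FLI1 lie closest to the median of theirs (0.06, 0.15 and 0.09 above it).

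The genes whose array pattern was most like that of ETS1, by the root mean square distance between mean-centred log2 values over the 6 arrays, were YPEL2 (0.045), RFTN2 (0.049) and LRP2 (0.055), and 18 genes lay within 0.1. YPEL2 changed from 7.17 ± 0.03 to 9.42 ± 0.02 (SD, n = 3). For ELK1, the largest fall, the nearest were TNNT1 (0.020), H2BC13 (0.021) and SPRYD7 (0.026). Its pattern was common, with 1422 genes within 0.1.

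Kinase genes of the ERK cascade also went both ways. Of 9 measured genes of 10 listed, 4 were lower, 3 were higher and 2 missed the threshold, with a median difference of -0.03. The test called 43.8% of all genes and 68% of those above the median expression. MAP2K1, which encodes MEK1, fell to 59.4% of its parent level (difference -0.75 ± 0.05, limma adjusted p = 1.4e-05), and the ribosomal S6 kinase gene RPS6KA3 (RSK2) to 63.4%. RPS6KA2 (RSK3) rose from 6.93 ± 0.16 to 7.70 ± 0.01 (SD, n = 3). MAPK3, which encodes ERK1, rose by 0.62 ± 0.05.

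Partners and regulators of ETS proteins showed the same mixture, with 11 of 14 listed genes measured, of which 4 rose and 4 fell. The shares called were again 43.8% over all genes and 68% above the median expression. SRF, the DNA-binding partner of the ternary complex factors, was at 9.44 ± 0.02 and 9.43 ± 0.02 (difference -0.01, 95% interval -0.11 to 0.08). CIC, the repressor of the PEA3 genes that ERK inactivates, was at 8.02 ± 0.05 and 8.14 ± 0.02 (difference 0.12, 95% interval 0.02 to 0.23, limma adjusted p = 0.0655), and passed the test when only genes above the median expression were tested (adjusted p = 0.03) and without parent replicate 3 (adjusted p = 0.049). DET1 and COP1 are parts of a ubiquitin ligase that degrades ETV1, ETV4 and ETV5. DET1 rose by 0.93 ± 0.09 (limma adjusted p = 0.00012), whereas COP1 was at 7.40 in both groups (95% interval -0.14 to 0.14). MED23, the Mediator subunit bound by phosphorylated ELK1, rose by 0.63 ± 0.04, and PIAS2, a SUMO ligase that acts as an ELK1 coactivator, changed by -0.68 ± 0.05.

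Genes read as output of ERK were mostly lower. Of 14 measured genes, 8 were lower and 2 higher, the other 4 missing the threshold, and the median difference was -0.35. Over all genes 22.9% were lower and 20.9% higher, and 68% of those above the median expression were called in either direction. After quantile normalization the call of CCND1, the cyclin D1 gene, ended (adjusted p = 0.0644). Beside LIF, a cytokine gene (9.88 ± 0.02 to 6.39 ± 0.04, SD, n = 3), the deepest falls were those of SPRY1, a Sprouty inhibitor of receptor signalling (-1.01 ± 0.04), and IER3, an immediate early gene (-0.95 ± 0.04). The 2 rises were those of another Sprouty gene, SPRY2 (0.45 ± 0.04), and of PHLDA1 (0.27 ± 0.04). DUSP4, SPRED1, SPRED2 and MYC missed the threshold. DUSP6, the ERK phosphatase gene that ETS factors help transcribe, fell to 57.9% of its parent level. ETV4 and ETV5, commonly read as ERK output themselves, were higher in the same samples.

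Immediate early genes under serum response factor and the ternary complex factors went mostly upward. Of 10 measured genes of 11 listed, 7 were higher and 1 lower, and the median difference was 0.63. Over all genes 20.9% were higher and 22.9% lower, and 68% of those above the median expression were called in either direction. FOS, a subunit of the AP-1 factor, went from 8.85 ± 0.12 to 10.93 ± 0.10 (SD, n = 3). EGR1, a zinc finger factor, rose by 0.64 ± 0.07 (limma adjusted p = 0.00028) and FOSB by 1.62 ± 0.19, while EGR3 was the 1 gene that fell (-1.03 ± 0.08). Whether these levels were set by the ELK proteins was not tested.

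Proteases and related genes whose promoters are known for ETS sites included 3 rises and 2 falls among 10 genes, with a median difference of 0.09. Over all genes the test called 43.8%. The gelatinase gene MMP2 was at 8.04 ± 0.04 and 10.68 ± 0.01 (SD, n = 3), and MMP14, which activates its product at the cell surface, rose by 0.69 ± 0.05. PLAUR, the urokinase receptor gene, fell to 29.6% of its parent level (limma adjusted p = 1.6e-07). PLAU, which encodes urokinase itself, was at 5.94 and 5.98 and did not pass the test. Group means lay below the lowest array median of 6.25 for 5 of the 10 genes, PLAU included. MMP1, counted among the falls, was another of these. The third rise, that of MET (0.19 ± 0.07, limma adjusted p = 0.0462), did not pass with a common median (adjusted p = 0.124), after quantile normalization (0.0725) or without any 1 of 5 arrays, the exception being parent replicate 1.

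**Figure D4:**
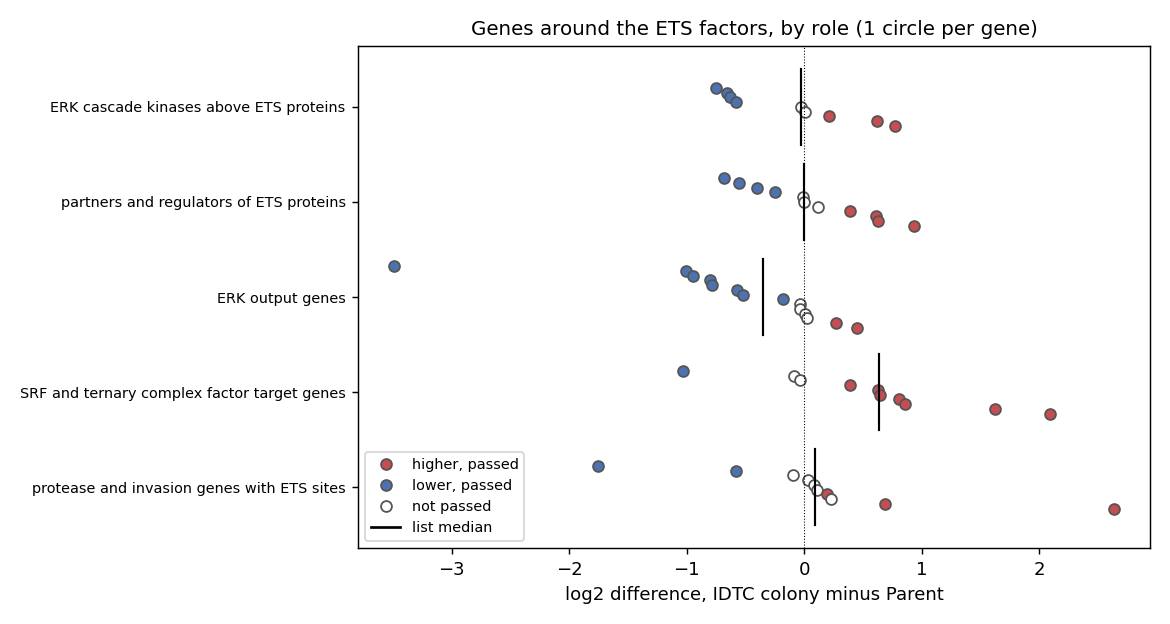
Log2 difference between IDTC colony and Parent for the genes around the ETS factors, 1 circle per gene, grouped by role, with the list median as a black line; red circles were higher and blue ones lower by limma, and open circles did not pass. The list medians run from -0.35 for ERK output genes to 0.63 for the serum response factor targets.

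The arrays of 1 group correlated at 0.997 to 0.998 across genes and those of different groups at 0.967 to 0.969. Of the melanocyte markers, MITF, SOX10, PMEL, MLANA, TYR and S100B lay above the array medians in both groups, as the label of a melanoma line implies, and TYRP1 lay below them. SOX10 (0.42), PMEL (0.33) and S100B (0.57) rose, MLANA (-1.45) and TYRP1 (-0.23) fell, and MITF and TYR did not pass the test. Of 6 measured leukocyte markers of 7 listed, LYZ (-2.35) and FCER1G (-1.44) fell while PTPRC, their defining marker, was at 3.67 and 3.71. PTPRC, CD14, CD3E and SPI1 did not pass the test, and the median difference of the 6 was -0.03. The 6 markers' summed linear signal was 491 to 562 in parent cells and 258 to 271 in colonies. This sum runs over unlike probe sets and is no measure of a fall in all 6. Its part in the ETS results was not tested. Endothelial, fibroblast and keratinocyte markers gave 1 rise (ERG) and 2 falls (LUM and PDGFRA) among 18 measured. Beside these marker counts, the test called 20.9% of all genes higher and 22.9% lower. In either direction it called 43.8% of all genes and 68% of those above the median expression. In RNA from a whole culture, fewer cells that express a gene and less RNA per cell cannot be told apart.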

How the data were processed

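Judged by their range, the deposited values are on the log2 scale, 1 per probe set. Affymetrix Expression Console is the tool in the submitters' processing notes; its version, background correction and normalization were not given in the sources used here. Medians of the 6 arrays ran from 6.25 to 6.34. Of 33297 probe sets, 19460 had 1 gene symbol, 1754 several and 12083 none in the platform annotation. The 19429 matched to RefSeq by Entrez ID kept their symbols. For 769 genes with several probe sets the one with the highest mean was used, which left 18417 genes with no filter on dim ones.

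Groups were taken from sample titles. The comparison used limma (lmFit, then eBayes; 2-sided) with p-values adjusted over all genes by Benjamini-Hochberg, and differences are colony minus parent. Replicates were isolated separately, but no label says they were separate cultures, so the p-values reflect the spread among these samples alone, and that spread may be technical. No batch is recorded in the sources used here, and one that followed the groups could not be told apart from them.

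The members and lists were chosen with earlier results of these data known. Named genes were all members, the 3 largest changes past the test in each list, 9 set genes, and marker genes changed by at least 2-fold; any others were picked with values known. Alternatives were another scaling of the arrays, a filter on dim genes, other uses of probe sets, another variance model, a replicate term, leaving out each array, and subtraction of the neighbours' median. The procedure was tested on simulated data. Work used R 4.3.3, limma 3.58.1 and Python 3.11.15.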

Additional observations from a re-analysis of the deposited data

How the results depend on the processing

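The 5 rises and 3 falls among the ETS genes were the same in number in each refit of all genes, and none of these 8 calls or their directions changed: with quantile normalization, a common median, a filter at the median expression (which left FLI1 untested), mean probe sets, all probe sets, trend and robust variances, the replicate block, and each array left out. Subtracting the neighbours' median moved ETS1 to 2.31, ETS2 to 0.79, ETV1 to -0.24 and ELK4 to 0.15, and turned the sign of ETV4 (-0.21), ELK3 (0.06) and FLI1, which had not passed the test (-0.02 to 0.09); these are values with no test.

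The other ETS genes held 1 rise with a common median and 2 after quantile normalization in place of 4, with 1 to 3 rises and 0 to 3 falls when 1 array was left out and 1 fall with the replicate block. Testing only genes above the median expression left 1 fall among protease genes, 1 among melanocyte markers, 1 rise and 1 fall among fibroblast markers, and 0 falls among leukocyte and 0 rises among endothelial markers. Endothelial markers also held 0 rises with a common median, quantile normalization or the replicate block, and 0 to 1 with 1 array left out. That block left 1 melanocyte fall and gave 1 fibroblast rise. With 1 array left out, melanocyte markers had 1 to 2 falls, fibroblast markers 1 to 2 and keratinocyte markers 0 to 2. The filter removed LYZ, FCER1G, TYRP1, MMP1, PDGFRA and ERG before the test, so the calls missing under it were not re-tested; the other causes were not tested.

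Same-numbered samples did not deviate together in their values (correlations of -0.089, -0.059 and -0.01). Whether they were handled together cannot be told from such correlations. With the replicate block, 3633 genes were higher and 3931 lower, against 3849 and 4212 without it. All probe sets gave 4805 and 5095.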
